A study of Mus musculus with 3 samples.

Results

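The genes described here are 10 chemokine genes, Ccl2, Ccl5, Ccl7, Ccl20, Cxcl1, Cxcl2, Cxcl5, Cxcl10, Cxcl16 and Cx3cl1, measured in a mouse kidney tubule cell line given a vitamin D metabolite or vehicle. Every non-control probe whose gene name was one of these 10 symbols was taken, which gave 13 of the 56605 probes and 10 of the 37008 gene names on the array. The cells were mpkDCT, a line derived from the mouse distal convoluted tubule, and all 3 groups, vehicle included, carried a CRISPR-Cas9 knockout of Cyp27b1. The enzyme it encodes adds a 1α-hydroxyl group to calcidiol and so makes calcitriol, the only structural difference between the hormones. Cells received calcitriol (1,25(OH)2D3 in the labels), calcidiol (25(OH)D3) or vehicle for 24 h in medium with 2% charcoal-stripped serum. The dose of either hormone was 1e-07 M, and a single array was run for each group (n = 1).

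Chemokines are small secreted proteins that direct the migration of leukocytes through receptors on those cells. Those with the CXC motif preceded by the residues glutamate, leucine and arginine attract neutrophils through Cxcr2, whereas most CC chemokines attract monocytes, lymphocytes or dendritic cells. Injured kidney tubule cells are a known source of several of them, and many chemokine genes are induced through the transcription factor NF-κB or by interferons.

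Since no group was repeated, differences could not be set against a spread between replicates, and p-values are not reported. The ± beside a difference is the scanner software's own spot error and does not cover variation between cultures. Differences are on the log2 scale after each array was divided by the 75th percentile of its signals, and 2-fold (1 on that scale) is used as a size threshold. A probe is called measured in a comparison where the scanner software marked it well above background on both arrays. The measurement is of bulk RNA, so a change in the share of cells that express a gene and a change in the RNA per cell cannot be told apart.

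The share of non-control spots well above background was 49.92% with calcitriol, 49.7% with calcidiol and 50.98% with vehicle, and the arrays lay on 1 slide read in 1 scan. The software's coefficient of variation between repeated spots was 9.68% with calcitriol, 3.75% with calcidiol and 7.37% with vehicle, and it marked the calcitriol value as out of range. For spike-in spots it marked this coefficient as out of range with calcitriol and with vehicle, the array that both hormone differences share. The targeted gene Cyp27b1 was well above background on none of the arrays, with signals of 7.05 with calcitriol, 3.82 with calcidiol and 2.91 with vehicle. The position of this probe relative to the edit is unknown here, so the value says nothing on the edit. Cyp24a1, the catabolic enzyme induced by the vitamin D receptor, had signals of 5443 with calcitriol and 288 with calcidiol, and at 2.68 was not well above background with vehicle. Among markers of kidney tubule epithelium, Cdh16, Pax2, Pax8 and Gata3 were well above background on all 3 arrays, and Epcam, Cdh1, Krt8, Krt18 and Krt19 on none. Of 8 distal tubule markers, Slc12a3, Calb1, Trpm6, Trpv5 and Kl were well above background on no array, Wnk1 and Stk39 on all 3, and Pvalb with calcitriol (20.1) and calcidiol (18.8) only. The labels call the line a distal tubule line, but its sodium chloride cotransporter gene Slc12a3 and the general epithelial markers Epcam, Cdh1 and the 3 keratins were not detected, while part of each marker list was. The 10 genes are therefore called chemokine genes here without a cell type. Of 8 leukocyte markers, 5 were well above background with calcitriol, 6 with calcidiol and 6 with vehicle. Ptprc, Csf1r, Itgam, Cd68 and Cd3e were so on all 3 arrays, and Adgre1, a macrophage marker, on none. Of the 7 probes of Ptprc and the 2 each of Itgam and Cd3e, only the brightest was measured in any comparison. The brightest Cd68 probe differed from vehicle by -0.31 with calcitriol and -0.04 with calcidiol, and its other probes by 0.67 and 0.87. The summed signals of the detected leukocyte markers, by the brightest probe of each and not scaled between arrays, were 2832 with calcitriol, 3612 with calcidiol and 3203 with vehicle. Csf1r, the brightest of them, gave 1349, 1916 and 1570 in that order, from a spot 2 rows or columns from the array edge. By that probe calcidiol differed from vehicle by 0.18, and by its other probe by -0.16. The part of these markers in the results below was not tested. Of 6 fibroblast markers, Pdgfrb, Pdgfra, Col3a1 and Lum were detected nowhere. Col1a1 and Dcn together had signals of 135 with calcitriol, 242 with calcidiol and 406 with vehicle, the same order as Ccl5 and Cx3cl1 below, and their part in those results was not tested either.

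Measured on all 3 arrays were 9 of the 10 chemokine genes, by 11 of the 13 probes. Cxcl2 was well above background on none, and the second Cx3cl1 probe was so with vehicle only. Against vehicle, Ccl20 and Cxcl5 were at least 2-fold higher with either hormone, Cxcl1 was at least 2-fold higher with calcidiol and not with calcitriol, and Ccl5 was at least 2-fold lower with calcitriol. Cx3cl1 lay just short of 2-fold lower with calcitriol. The remaining measured genes, Ccl2, Ccl7, Cxcl10 and Cxcl16, were less than 2-fold apart in every comparison.

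With calcitriol against vehicle, 2 of the 9 measured chemokine genes (Ccl20 and Cxcl5) passed 2-fold upward and 1 (Ccl5) downward. Of the 16944 genes and unnamed transcripts measured in that comparison, 0.986% passed the threshold upward, 1.68% downward and 2.66% in either direction. With calcidiol against vehicle, 3 of 9 were at least 2-fold higher and 0 lower, where 0.868% and 0.142% of all 16938 genes were (1.01% in either direction). Between calcitriol and calcidiol, 0 of 9 were higher by that much and 1 (Cxcl1) was lower, where 0.459% and 1.45% of all 16788 genes were (1.91% in either direction). The median difference of the 9 genes was 0.01 with calcitriol and 0.16 with calcidiol, beside -0.01 and -0.01 over all genes. Between the hormones it was -0.23, beside 0.00 over all genes. The chemokine genes thus spread to both sides with calcitriol, from -1.32 to 1.54, and from -0.45 to 1.41 with calcidiol. Ccl7, Ccl20 and Cxcl5 lay in the dimmest 25% of genes by mean signal, where upward differences from vehicle past 2-fold were more common. Among those dim genes 1.68% passed it upward with calcitriol and 1.58% with calcidiol.

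**Figure D1:**
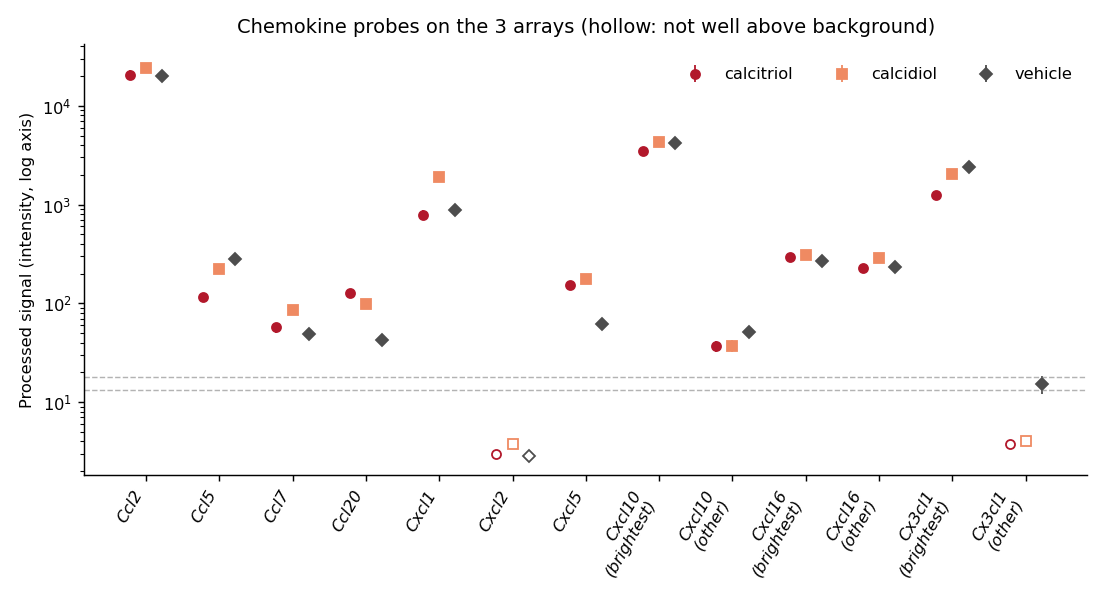
Processed signal (intensity, log axis) of each of the 13 chemokine probes with calcitriol, calcidiol and vehicle, 1 array each; bars are the scanner error, hollow points were not well above background, and dashed lines mark the lowest and highest of the 3 arrays' smallest signals well above background (13.4 and 17.9). Ccl20 and Cxcl5 sit higher with either hormone than with vehicle, Cxcl1 is highest with calcidiol, and Ccl5 and the brightest Cx3cl1 probe are lowest with calcitriol.

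The probes are 60-base oligonucleotides, and the part of the transcript that each one reads was not looked up. For the genes that were furthest apart between arrays, the last 30 bases of the probe are given 5′ to 3′, in the letters of the array design and in lower case. Capitals mark the polyadenylation hexamer aataaa, which 1 of the 13 probes holds. Probe positions are on mm9.
Cxcl5 (chr5:91190490-91190549, plus strand): ttttaaagagtgtgctttgttataaggaga
Ccl20 (chr1:83115500-83115559, plus strand): aatgttaatttcccacaatccatgggggcg
Cxcl1 (chr5:91322080-91322139, plus strand): tacaaatgaagtaaaAATAAAagttttatt
Ccl5 (chr11:83339296-83339355, minus strand): acccaagaaatcagcatttcattgaaattt
Cx3cl1, brightest probe (chr8:97306185-97306244, plus strand): tgaggaggactttaaaagttgttgatcctt
Cx3cl1, second probe (chr8:97296213-97301245, plus strand): ctgaactccttatcccaaactcattctgca
The coordinates of the second Cx3cl1 probe span 5033 bases, far more than its own length, so it was designed on bases that are not contiguous in the genome. The genes Cxcl10, Cxcl16 and Cx3cl1 had 2 probes and the other 7 had 1. The guanine and cytosine content of the 13 probes ran from 35% to 55%. None of their spots carried an outlier flag on any array. The 10 genes lie on 4 chromosomes, with 4 on chromosome 5 (Cxcl1, Cxcl2, Cxcl5 and Cxcl10) and 4 on chromosome 11 (Ccl2, Ccl5, Ccl7 and Cxcl16).

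Among the neutrophil chemokines, Cxcl5 was higher with either hormone, Cxcl1 with calcidiol alone by the size threshold, and Cxcl2 was not detected. Cxcl5, a Cxcr2 ligand made by epithelial cells, had signals of 153 with calcitriol, 176 with calcidiol and 61.4 with vehicle. Both hormone arrays lay well above the vehicle array and close to each other. The difference from vehicle was 1.29 ± 0.22 with calcitriol, a 2.44-fold higher level, and 1.41 ± 0.22 with calcidiol, or 2.66-fold. These ranked 116 and 61 from the highest of all genes measured in the comparison. The hormones differed from each other by -0.12 ± 0.21, which is within the scanner error. With normexp background correction and quantile normalisation the differences from vehicle were 0.81 and 0.83, under 2-fold, and the calcitriol difference was also under 2-fold at 0.96 when an offset of 32 was added to every signal.

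Cxcl1, the mouse neutrophil attractant also known as KC, had signals of 792 with calcitriol, 1924 with calcidiol and 875 with vehicle. The calcidiol array stood apart, and the calcitriol and vehicle arrays were close. Calcidiol was higher than vehicle by 1.03 ± 0.20, or 2.04-fold, whereas calcitriol differed from vehicle by -0.18 ± 0.20. The difference of calcitriol from calcidiol was -1.20 ± 0.20, 2.30-fold lower, and Cxcl1 was the chemokine gene for which the hormones were furthest apart. It ranked 130 from the lowest of 16788 genes in that comparison. Both of these lay close to the threshold: with arrays centred on their median signal they were 0.94 and -0.99, just under 2-fold. Of 4 probes of like brightness printed 10 times on the array, the median SD between spots was 0.10 for the difference of calcidiol from vehicle and 0.15 for that between the hormones. The highest such SD for the hormones was 0.62.

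Cxcl2, the neutrophil attractant MIP-2, had signals of 2.99 with calcitriol, 3.79 with calcidiol and 2.86 with vehicle. None was well above background, so no fold is given. Its probe lies 12.4 kb from that of Cxcl1 on chromosome 5, and that of Cxcl5 lies 131.5 kb from that of Cxcl1 on the other side.

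The promoters of Cxcl1 and Cxcl2 are printed because the upstream sequences of these neighbours share a stretch, while Cxcl1 was measured on all arrays and Cxcl2 on none. RefSeq's table (build GRCm38.p6) held the start of 5 of the 10 genes, Ccl20, Cxcl1, Cxcl2, Cxcl10 and Cx3cl1, and the 250 bases before each start were searched on both strands. The NF-κB motif searched was GGG, any 3 bases and TTCC, and its exact form has AAT as the 3 inner bases. Capitals below mark every match to the motif, and overlapping matches run together. Bases are given 5′ to 3′ on the gene's strand and end just before the annotated start.
Cxcl1 (chr5:90891125-90891244, plus strand): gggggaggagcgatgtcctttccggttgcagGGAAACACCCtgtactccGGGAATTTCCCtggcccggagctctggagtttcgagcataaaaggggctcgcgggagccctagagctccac
Cxcl2 (chr5:90903779-90903898, plus strand): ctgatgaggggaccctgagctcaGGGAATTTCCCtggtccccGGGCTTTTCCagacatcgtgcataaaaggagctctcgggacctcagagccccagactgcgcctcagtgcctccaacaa
Both windows hold the exact form, at 71 to 62 bases before the start of Cxcl1 and at 97 to 88 bases before that of Cxcl2. In each, the exact form overlaps a match on the opposite strand by all but 1 base, and a further match lies elsewhere in the window. The longest run the windows share is 14 bases, gggaatttccctgg. Of 32851 promoter windows in the table, 0.0852% hold the exact form and 4.65% hold the motif, which was found in 4 of the 5 chemokine windows and not in that of Cx3cl1. A match describes letters only, and the motifs were chosen after the data had been seen.

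Among the chemokines of monocytes, lymphocytes and dendritic cells, Ccl20 was higher with either hormone, Ccl5 was lower with calcitriol, and Ccl2 and Ccl7 were less than 2-fold apart. Ccl20, the ligand of Ccr6 on dendritic cells, B cells and interleukin-17-producing T cells, had signals of 126 with calcitriol, 98.5 with calcidiol and 42.5 with vehicle. Both hormone arrays were above vehicle, calcitriol more so. The difference from vehicle was 1.54 ± 0.23 with calcitriol, or 2.90-fold, ranking 80 from the highest, and 1.10 ± 0.23 with calcidiol, or 2.15-fold, ranking 114. Calcitriol exceeded calcidiol by 0.43 ± 0.21. The vehicle signal was 3.18 times the lowest signal well above background on its array, so the fold depends on how dim signals are treated. With normexp and quantile normalisation the differences were 0.92 with calcitriol and 0.58 with calcidiol, and with an offset of 32 they were 1.05 and 0.71.

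The promoter of Ccl20 held 1 match to the NF-κB motif, on the opposite strand at 80 to 71 bases before the start, in capitals here.
Ccl20 (chr1:83116646-83116765, plus strand, GRCm38.p6): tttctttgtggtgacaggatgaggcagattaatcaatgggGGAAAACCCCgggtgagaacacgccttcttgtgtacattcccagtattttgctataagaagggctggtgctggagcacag
The consensus of the vitamin D response element, a direct repeat with a 3-base spacer, was matched in 0 of the 5 chemokine windows and in 0.332% of all windows. No match says only that these letters are not in the 250 bases searched.

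Ccl5, the T cell and monocyte attractant RANTES, had signals of 115 with calcitriol, 221 with calcidiol and 280 with vehicle. Calcitriol was the lowest array, and calcidiol lay between it and vehicle. The calcitriol difference from vehicle was -1.32 ± 0.21, 2.50-fold lower, and ranked 106 from the lowest of 16944 genes. Calcidiol differed from vehicle by -0.45 ± 0.21, and calcitriol from calcidiol by -0.87 ± 0.21, 1.83-fold lower. With normexp and quantile normalisation the calcitriol difference was -0.95, under 2-fold.

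Ccl2, the monocyte attractant MCP-1 that acts through Ccr2, had signals of 20757 with calcitriol, 24361 with calcidiol and 20206 with vehicle. The arrays were nearly level: the differences from vehicle were 0.01 ± 0.20 with calcitriol and 0.16 ± 0.20 with calcidiol. Ccl7, another ligand of Ccr2 whose probe lies 9.95 kb from that of Ccl2 on chromosome 11, had signals of 57.1 with calcitriol, 84.8 with calcidiol and 49.0 with vehicle. Its difference from vehicle was 0.19 ± 0.24 with calcitriol and 0.68 ± 0.23 with calcidiol, 1.60-fold higher, and the hormones differed by -0.49 ± 0.23. Ccl7 is dim, and 3 probes of like brightness printed 10 times had SDs between spots of up to 0.37 for the calcidiol difference.

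Cxcl10, the interferon-inducible ligand of Cxcr3 on activated T cells, was less than 2-fold apart in every comparison by either probe. Its brightest probe had signals of 3464 with calcitriol, 4281 with calcidiol and 4198 with vehicle, and differed from vehicle by -0.31 ± 0.20 and -0.08 ± 0.20. Its second probe, designed on another transcript record, had signals of 37.0 with calcitriol, 37.3 with calcidiol and 51.4 with vehicle, with differences of -0.51 ± 0.25 and -0.57 ± 0.27. The probes thus placed calcidiol differently, level with vehicle by the first and lower by the second. The promoter of Cxcl10 is shown because it alone of the 5 held the interferon element, GAAA repeated after any 2 bases, beside matches to the NF-κB motif. Both are in capitals.
Cxcl10 (chr5:92348890-92349109, minus strand, GRCm38.p6): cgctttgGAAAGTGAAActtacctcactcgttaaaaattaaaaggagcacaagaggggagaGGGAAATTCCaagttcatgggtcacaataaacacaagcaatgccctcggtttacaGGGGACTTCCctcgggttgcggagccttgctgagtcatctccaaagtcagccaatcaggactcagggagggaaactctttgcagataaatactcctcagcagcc
The interferon element lies 213 to 204 bases before the start, and 2.98% of all windows hold these letters. The NF-κB matches lie 159 to 150 and 104 to 95 bases before it.

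Cx3cl1 and Cxcl16 encode the chemokines that are made as transmembrane proteins and released by the proteases Adam10 and Adam17. Cx3cl1, or fractalkine, the ligand of Cx3cr1 on monocytes and microglia, had signals of 1241 with calcitriol, 2019 with calcidiol and 2398 with vehicle by its brightest probe. The order of the arrays was that of Ccl5, calcitriol lowest and vehicle highest. The difference from vehicle was -0.98 ± 0.20 with calcitriol, 1.98-fold lower, and -0.36 ± 0.20 with calcidiol. Calcitriol differed from calcidiol by -0.62 ± 0.20. Quantile normalisation put the calcitriol difference just past 2-fold, at -1.01. The deposited value table gave the same value. Its differences were nearly those of quantile normalisation for all chemokine genes, so these are not separate checks. The spot lies 5 columns from the array edge. The 149 measured spots around it had a median calcitriol difference of -0.10. The second Cx3cl1 probe had a signal of 15.1 with vehicle and was not well above background with calcitriol (3.79) or calcidiol (3.99). It was at least 1.12-fold lower with calcitriol, and no bound above 1 could be given for calcidiol.

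Cxcl16, the ligand of Cxcr6 on T cells, had signals of 296 with calcitriol, 311 with calcidiol and 266 with vehicle by its brightest probe. Its second probe had 226 with calcitriol, 285 with calcidiol and 232 with vehicle. The differences from vehicle were 0.12 ± 0.21 and 0.11 ± 0.21 by the first probe and -0.07 ± 0.21 and 0.18 ± 0.21 by the second, all within the scanner error. No promoter of Cx3cl1 is printed, since none of the letters searched was found in its window.

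**Figure D2:**
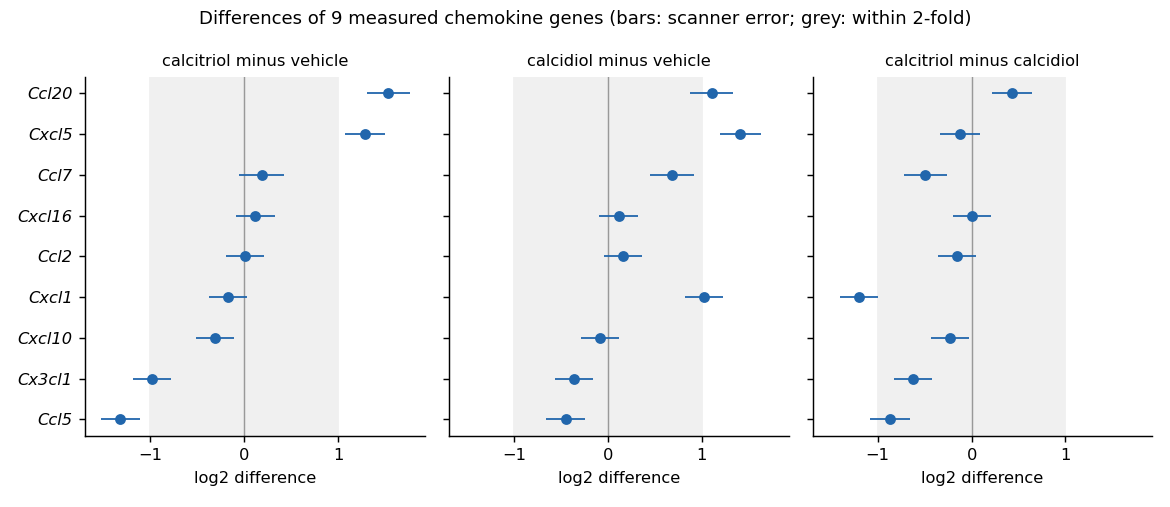
Log2 differences of the 9 measured chemokine genes, read from the brightest probe, for calcitriol minus vehicle, calcidiol minus vehicle and calcitriol minus calcidiol. Points are the differences between single arrays, bars the scanner error, and the grey band marks differences under 2-fold; Ccl20 and Cxcl5 lie right of the band in the first 2 panels, Cxcl1 in the second and, on the left, in the third, and Ccl5 lies left of it in the first.

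The spots around each of the 13 probes, up to 10 rows or columns away, give a measure of local unevenness. Their median difference ran from -0.10 to 0.08 over the 3 comparisons, with 148 to 216 spots around each probe. Apart from that of Cx3cl1, no chemokine spot lay closer than 9 rows or columns to the array edge.

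Set among all genes, some chemokine genes stood apart, while Ccl2, Cxcl10 and Cxcl16 lay in the body of genes. In the plot of both hormone differences Ccl20 and Cxcl5 lie at the upper right, Cxcl1 lies above the body of genes near the vertical axis, and Ccl5 and Cx3cl1 lie to the left. The hormone differences share the vehicle array, so the axes of that plot are not independent.

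**Figure D3:**
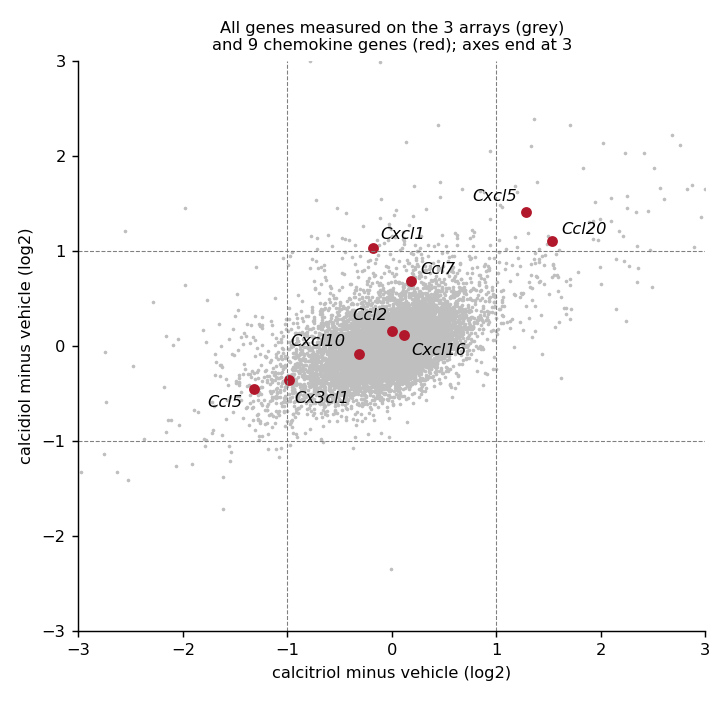
Calcidiol minus vehicle against calcitriol minus vehicle (log2) for 16666 genes measured on all 3 arrays (grey) and the 9 chemokine genes (red); dashed lines mark 2-fold, and 19 genes lie beyond the axes. Both differences use the same vehicle array; Cxcl1 lies at -0.18 and 1.03, and Ccl20 at 1.54 and 1.10.

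By Euclidean distance in these paired differences over the 3 arrays, the named genes nearest to Cxcl1 were Kcnh4, a potassium channel gene, at a distance of 0.08, and Pou4f1, a transcription factor gene, at 0.11. The other 3 of the nearest 5 were transcripts without a gene symbol. Kcnh4 had signals of 148 with calcitriol, 331 with calcidiol and 158 with vehicle, from a spot 3 rows or columns from the array edge. A second Kcnh4 probe gave a calcidiol difference from vehicle of -0.13, against 0.95 for the brightest. The 2 other Pou4f1 probes were not measured in that comparison. Likeness over 3 single arrays is a description only.

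Other chemokine ligands were mostly not detected. Of 27 further ligand genes, 22 were well above background on no array and 4 were measured in each comparison. With calcitriol 0 of these 4 were at least 2-fold higher and 1 was lower, beside 0.986% and 1.68% of all genes. With calcidiol 0 of 4 passed 2-fold, beside 1.01% of all genes. Ccl17, an attractant of T cells that carry Ccr4, had signals of 100.3 with calcitriol, 159 with calcidiol and 199 with vehicle, with differences from vehicle of -1.02 and -0.43. Its arrays stood in the same order as those of Ccl5 and Cx3cl1. Cxcl11, a Cxcr3 ligand like Cxcl10, had signals of 21434 with calcitriol, 34964 with calcidiol and 27828 with vehicle. Its difference between the hormones, -0.63, was the lowest of that list, and its other probe gave -0.25. Ccl25, highest of that list between the hormones at -0.25, came from a spot 2 rows or columns from the array edge, and its other probes gave -0.10. Ccl27a differed from vehicle by -0.03 with calcitriol and 0.25 with calcidiol, and its other probes gave 0.44 and 1.10. The mouse genome holds near-identical Ccl27 copies, whose RNA these probes may share. The median of the 4 ligands was -0.29 with calcitriol and 0.15 with calcidiol, beside -0.01 and -0.01 over all genes.

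Chemokine receptors were mostly not detected, with 19 of 23 well above background on no array, Cxcr2, Ccr2, Cxcr3 and Cx3cr1 among them. The 2 receptors measured on all arrays were Ackr3, which scavenges Cxcl11 and Cxcl12, and Ccrl2. Ackr3 had signals of 444 with calcitriol, 330 with calcidiol and 346 with vehicle, and differed from vehicle by 0.33 and -0.18. Ccrl2 differed by -0.09 with calcitriol and 0.23 with calcidiol. Ccr6, the receptor of Ccl20, was well above background with calcidiol only, where its signal was 26.5, at least 1.84-fold higher than vehicle. Cxcr6, the receptor of Cxcl16, was likewise so with calcidiol only, at 20.7 and at least 1.44-fold higher than vehicle, from a spot at the array's edge.

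Of 4 proteases that act on chemokines, the 3 measured on all arrays were less than 2-fold apart. Over all genes 2.66% passed 2-fold with calcitriol against vehicle and 1.01% with calcidiol, so 0 of 3 is near that share. Mmp9 has only a bound against vehicle. Adam17 differed from vehicle by -0.44 with calcitriol and -0.16 with calcidiol, and Adam10 by -0.04 and 0.04, by the brightest probe of each. Other probes gave -0.34 and -0.32 for Adam17 and -0.27 and -0.28 for Adam10. Dpp4, a dipeptidyl peptidase that trims several chemokines, had signals of 368 with calcitriol, 301 with calcidiol and 241 with vehicle. Its differences from vehicle were 0.58 and 0.21. Mmp9, by its brightest probe, was well above background with calcitriol only, at 26.8, and was at least 1.96-fold higher than vehicle. Its other probe was measured with both hormones and put calcitriol above calcidiol by 0.43.

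Of 28 genes of the NF-κB system, 21 were measured against vehicle, and 0 of 21 were 2-fold apart with either hormone. Over all genes 2.66% were so with calcitriol and 1.01% with calcidiol, so a count of 0 is near the share over all genes. Their median difference was 0.11 with calcitriol, where 14 of 21 lay above 0, and 0.01 with calcidiol, where 13 did, beside -0.01 and -0.01 over all genes. For calcitriol minus calcidiol the median was 0.17, where 17 of 21 lay above 0, beside 0.00 over all genes. Nfkbia, the inhibitor IκBα and itself a target of NF-κB, had signals of 10369 with calcitriol, 7629 with calcidiol and 5500 with vehicle. Its differences from vehicle were 0.88 and 0.36. Nfkbiz, a nuclear co-regulator of NF-κB, had 835 with calcitriol, 686 with calcidiol and 453 with vehicle, with differences of 0.85 and 0.49 by its brightest probe and 0.97 and 0.81 by others. Both stood in the order calcitriol, calcidiol, vehicle, as did Csf1, at 0.55 and 0.30. The feedback genes did not all share that order. Tnfaip3, which encodes A20, differed by -0.10 with calcitriol and -0.27 with calcidiol, and Zc3h12a, which encodes an RNase that degrades inflammatory transcripts, by -0.15 and -0.36. Rela, the main activating subunit, had signals of 12774 with calcitriol, 12991 with calcidiol and 12030 with vehicle, a difference of 0.05 with calcitriol and 0.00 with calcidiol. Irf1, lowest of the list with calcitriol at -0.18, came from a spot at the very edge of the array. Its second probe gave -0.54 with calcitriol and -0.19 with calcidiol. Zfp36, lowest of the list between the hormones at -0.35, came from a spot 2 rows or columns from the array edge. The inflammatory cytokine genes Il1a, Il1b, Il6, Il33, Lif and Csf2 were well above background on no array, and Tnf with vehicle only, at 20.0.

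**Figure D4:**
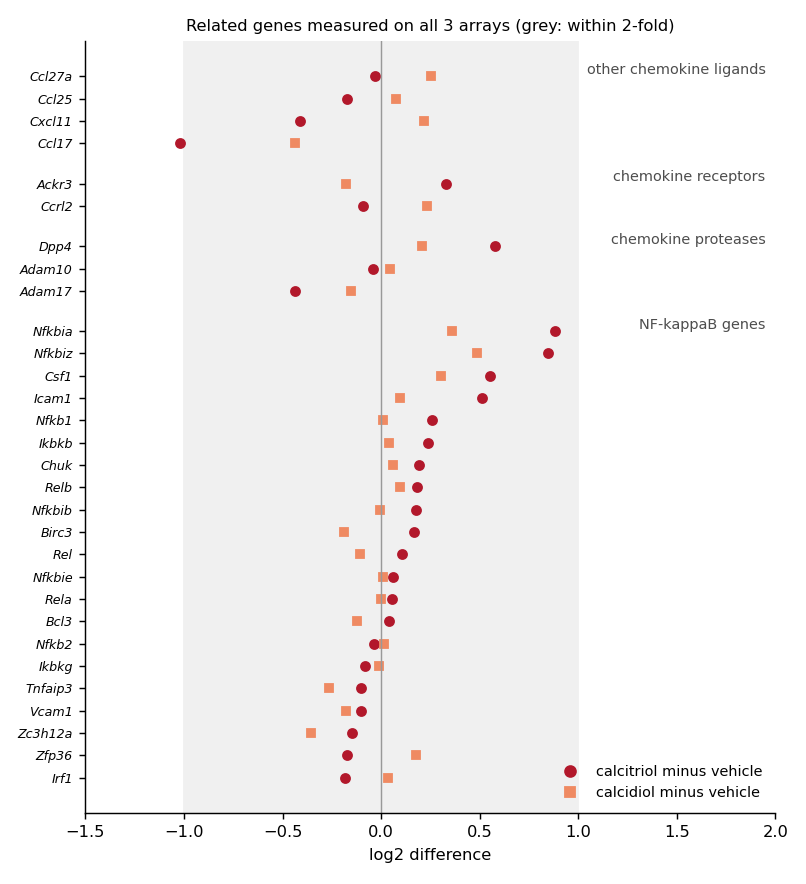
Log2 difference from vehicle with calcitriol (circles) and calcidiol (squares) of other chemokine ligands, chemokine receptors, chemokine proteases and NF-κB genes measured on all 3 arrays, read from the brightest probe, with 1 array per group. The grey band marks differences under 2-fold, and only the calcitriol difference of Ccl17, at -1.02, lies outside it.

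The differences kept their sign under most of the 14 other ways of processing the arrays that were tried. Those of Ccl20 and Cxcl5 from vehicle stayed above 0 with each hormone under all alternatives that gave a value, and those of Ccl5 and Cx3cl1 stayed below 0. The calcitriol difference of Cxcl1 from calcidiol ran from -1.28 to -0.99. The lowest values of Ccl20 and Cxcl5 came with normexp background correction, and the plot of alternatives shows the spread for each gene. Settings that only filter spots or genes repeat the reported value of a chemokine gene or drop it.

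**Figure D5:**
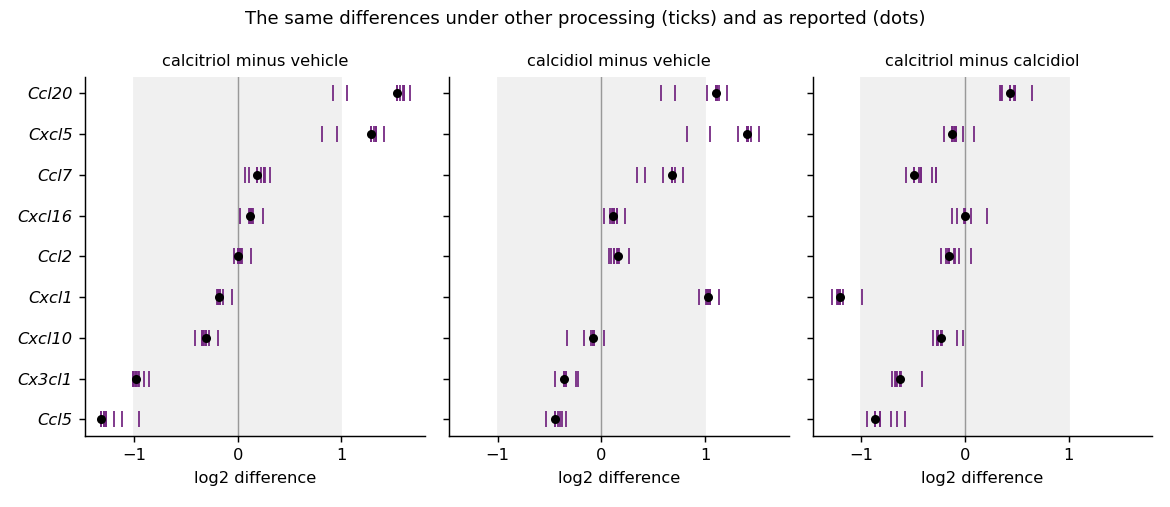
Log2 differences of the 9 measured chemokine genes as reported (dots) and under each other way of processing that gave a value (ticks), for calcitriol minus vehicle, calcidiol minus vehicle and calcitriol minus calcidiol; the grey band marks differences under 2-fold. The calcidiol difference of Ccl20 ran from 0.58 to 1.21, and that of Cxcl1 from 0.94 to 1.14.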

How the data were processed

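Total RNA from the 3 groups was labelled with Cy3 and hybridised to 1-colour Agilent mouse arrays. The deposited spot intensity, on a linear scale, had background subtracted and a spatial trend removed by Agilent's Feature Extraction software, in version 10.7.1.1 per the file headers and 9.5.1.1 per the submitters' processing notes. Probe positions are on mm9, per the file headers. The deposited value table holds an intensity per probe that had been normalised between arrays by a tool not given in the sources used here, and it was used as an alternative only. Its differences of the chemokine genes were nearly those of quantile normalisation. Sample titles carry a tag, siCT, that these sources do not explain.

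Controls and outlier-flagged spots were dropped, spots of a probe were averaged, and log2 signals were centred on each array's 75th percentile (379.8 with calcitriol, 400.8 with calcidiol and 371.1 with vehicle). No spot was saturated. Of 56605 probes, 58.29% were named through their accession in RefSeq's gene table. A further 520 had a design name that the table lists as a synonym of only 1 gene and took that gene's symbol, and the rest were named by the array design. Each gene took the values of the probe with the highest mean over the 3 arrays. For genes of the lists and markers, a value given by other probes is the mean over those measured in the comparison. For a probe well above background on 1 side of a comparison only, the fold is a bound: the dim side was set at the smallest signal its array marked well above background, or at the probe's signal if larger. R 4.3.3 with limma 3.58.1, Python 3.11.15, numpy 2.4.6, pandas 2.3.3 and matplotlib 3.10.9 were used, and simulated data with known changes were used to check the counting.

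With 1 array a group there was no test, and the number of arrays limits the precision. The 10 genes, the 4 related gene lists and the cell type markers were chosen with earlier results of these data known. Some marker genes are not reported here. All probes of the 10 genes are reported. From the lists, genes at least 2-fold apart and the highest, lowest and brightest measured genes were to be named, and other genes named from them were chosen after their values were seen. As alternatives, arrays were centred on the median, left unscaled, or normalised by quantiles, by cyclic loess or by normexp (offset of 50) and quantiles. Signals were raised by 32, dim probes were filtered in other ways, flagged spots were kept, detected probes of a gene were averaged, and the value table was used. The threshold was set to 1.5-fold or 3-fold, and the outermost 6 rows and columns were left out.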

Additional observations from a re-analysis of the deposited data

How the results depend on the processing

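Of 312 recomputed differences of single chemokine genes, 292 stayed within the scanner error of the reported value, 20 moved by more, and none that had passed 2-fold changed sign. Many of the 292 could not move. Settings that kept flagged spots, let 1 detected array suffice, or left out dim genes or outer rows and columns repeated the reported value. Averaging detected probes likewise left a gene with 1 measured probe unchanged. The count of chemokine genes at least 2-fold apart was 3 for calcitriol against vehicle, 3 for calcidiol against vehicle and 1 between the hormones. With normexp background correction and quantile normalisation the first 2 counts were 0 and 1, and above the 25th percentile of signal, which only 6 chemokine genes passed, they were 1 and 1. Centring on the array median left 0 between the hormones. A 3-fold threshold left 0 in all 3 comparisons, and a 1.5-fold threshold gave 3 between the hormones. Over all genes, 451, 171 and 321 were at least 2-fold apart for calcitriol against vehicle, calcidiol against vehicle and between the hormones. In that order the counts were 254, 86 and 167 when 32 was added to each signal, 207, 84 and 169 by normexp and quantiles, 190, 61 and 140 above the 25th percentile, and 1007, 691 and 878 where 1 detected array of a pair sufficed. They were 1652, 713 and 1308 at 1.5-fold and 122, 45 and 76 at 3-fold. With median centring the median over all genes became 0.12, -0.10 and 0.21. The upward part of the genes past 2-fold was then 54.4%, 73.2% and 54.3%, against 37.0%, 86.0% and 24.0% as reported. Differences under that centring are to be read relative to these medians. Other settings moved that share by over 10 percentage points only above the 25th percentile (96.7% for calcidiol), with detection on 1 array (66.7% for calcidiol) and at the other thresholds. With the outermost 6 rows and columns left out, Cx3cl1 had no measured probe. Differences within the scanner error changed sign under some settings, such as that of Cxcl5 between the hormones, at 0.09 with median centring. The causes were not tested. No paired analysis was possible because each group had 1 array. No setting could leave out a replicate, for the same reason.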
